A study of Homo sapiens with 21 samples.

Results

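Expression was examined for 10 genes of xenobiotic metabolism that are known targets of the transcription factor NRF2: the quinone reductase NQO1, the aldo-keto reductases AKR1C1, AKR1C2, AKR1C3 and AKR1B10, the exporters ABCC1, ABCC2 and ABCC3, the epoxide hydrolase EPHX1 and the stress-response gene OSGIN1. They were chosen by symbol, and all 10 were among the 23368 genes of the expression table. Of those genes, 19694 had differing values and were tested, the 10 included, while 3674 held the same value in every library. RNA came from hTERT-HPNE cells, a nontransformed human pancreatic line immortalized with telomerase, and 21 libraries made up 7 groups with 3 biological replicates each. One group was untreated and harvested at 0 h, and no untreated cells were harvested at 4, 8 or 24 h. The treated cells received the agent in fresh medium. A difference from untreated cells therefore combines the agent with the hours in fresh medium, and the 2 cannot be told apart. Comparisons of H2O2 with NCS are made at equal times. The cells of 3 groups were harvested 4, 8 or 24 h after 300 µM hydrogen peroxide (H2O2), an oxidant, and those of 3 groups 4, 8 or 24 h after 400 ng/ml neocarzinostatin (NCS), a radiomimetic drug that breaks DNA strands. All groups were the same cell line, each agent was given at 1 dose, and the H2O2 dose was one that kills part of a culture. The question for these genes is how their expression differed between an oxidant and a DNA-damaging drug over the first day.

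NRF2, encoded by NFE2L2, is the main transcription factor of the response to oxidants and electrophiles. In unstressed cells the adaptor KEAP1 delivers NRF2 to a CUL3 and RBX1 ubiquitin ligase and it is degraded. When oxidants modify KEAP1, NRF2 accumulates, pairs with a small MAF protein and binds antioxidant response elements, where BACH1 competes with it. Its target genes reduce, hydrolyse or conjugate reactive compounds and pump the conjugates out of the cell.

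The deposited values are rLog values, which are counts normalized for library size and put on a log2 scale by a transformation that shrinks differences. They are not divided by transcript length, so levels are compared here between libraries. Only the check of cell type markers sets levels of different genes side by side, and it is rough for that reason. Every difference below is a difference of mean rLog values, on the log2 scale, and understates the change of genes with few reads. The 7 groups were fitted together with limma, with Benjamini-Hochberg (BH) adjustment over all 19694 genes, and a gene was counted as higher or lower at an adjusted p-value under 0.05. For a single gene, an exact permutation test of 3 libraries against 3 cannot give a two-sided p-value below 0.1. Because RNA came from whole cultures, a change in the RNA per cell cannot be told apart from a change in which cells were left.

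The medians of the libraries lay between 7.14 and 7.19, and no counts or depths were given. One library stood apart from its group: replicate 2 of H2O2 at 8 h lay at distances of 14.74 and 15.15 from the other replicates of its group over all tested genes, while all other pairs within a group lay between 8.94 and 11.44. Results at 8 h after H2O2 are therefore also given without it. The labelled cell type was checked by markers. All 6 mesenchymal and progenitor-like markers had mean values from 9.26 to 20.04, among them vimentin (VIM) and nestin (NES). The 8 ductal and epithelial markers were mixed. KRT18 lay between 11.38 and 11.85, KRT8 between 7.73 and 8.28 and KRT7 between 6.61 and 7.17. SOX9 lay between 5.78 and 6.48, MUC1 between 5.841 and 6.315 and CDH1 between 3.70 and 3.88. KRT19 stayed between 0.58 and 0.73 and EPCAM between -1.77 and -1.74, close to 0 or below it in every library. The 4 acinar and 4 endocrine markers were at 0 or below. Among 3 immune markers, CD68 lay between 9.94 and 10.57 while PTPRC did not exceed 0.98 and CD3E was listed at 0. Of 3 endothelial markers, VWF lay between 3.02 and 3.41, PECAM1 between 2.02 and 2.42 and CDH5 between -2.04 and -2.03. TERT, the telomerase gene, lay between 13.86 and 14.37.

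**Figure D1:**
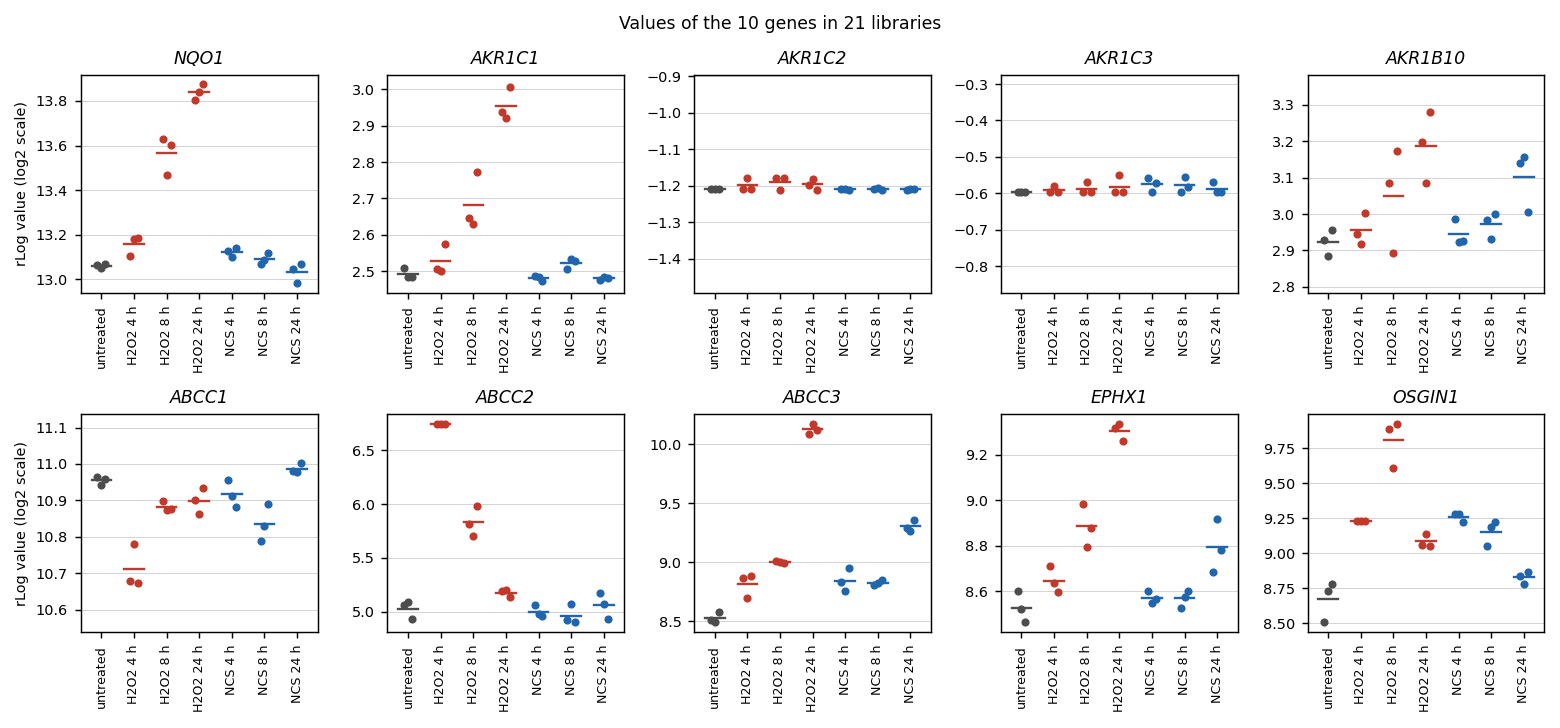
rLog values (log2 scale, y axis) of the 10 genes in all 21 libraries. Each point is 1 library, each line the mean of 3 replicates, grey for untreated, red for H2O2 and blue for NCS, and y axes differ between genes but span at least 0.6. NQO1, AKR1C1, AKR1B10, ABCC3 and EPHX1 had their highest mean 24 h after H2O2, ABCC2 at 4 h and OSGIN1 at 8 h, while AKR1C2 and AKR1C3 varied by less than 0.05 over all libraries.

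NQO1 reduces quinones directly to hydroquinones and is the classical marker of NRF2 activity. It rose with time after H2O2 and did not pass the test at any time after NCS. Its values were 13.06, 13.05 and 13.07 in untreated cells. They were 13.10, 13.18 and 13.19 at 4 h after H2O2, 13.63, 13.47 and 13.60 at 8 h, and 13.80, 13.84 and 13.87 at 24 h. All 3 H2O2 groups lay above the untreated group without overlap, and each later H2O2 group lay above the earlier one. The NCS groups at 4 h (13.0987 to 13.1386) and 8 h (13.0700 to 13.1184) also lay above the highest untreated value, 13.0692. At 4 h the libraries of the agents overlapped. The difference from untreated cells was 0.10 (SE 0.03, BH-adjusted p = 0.0299) at 4 h, 0.50 (BH-adjusted p = 2.86e-09) at 8 h and 0.78 (BH-adjusted p = 1.37e-12) at 24 h. The small difference at 4 h was lost when any untreated replicate, or replicate 2 or 3 of H2O2 at 4 h, was left out, with adjusted p-values from 0.0527 to 0.109, and under quantile normalization it was 0.05 (BH-adjusted p = 0.253). Without replicate 2 at 8 h, the difference at 8 h was 0.55 (BH-adjusted p = 4.88e-11). After NCS, NQO1 values ranged from 12.98 to 13.14 over the 9 libraries, and the differences from untreated cells were 0.06, 0.03 and -0.03 at 4, 8 and 24 h, with 95% intervals that reached no further than 0.13 upward and -0.10 downward. H2O2 and NCS differed by 0.47 at 8 h (BH-adjusted p = 1.07e-08) and by 0.81 at 24 h (BH-adjusted p = 3.13e-11), whereas at 4 h the difference was 0.04 (95% interval -0.04 to 0.11, BH-adjusted p = 0.443).

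The promoter of NQO1 is shown because NRF2 acts on this gene through an antioxidant response element. RefSeq windows from 250 bases before to 50 bases after the start site, on GRCh38.p14, were searched on both strands for the core letters TGACNNNGC and for the wider TGANNNNGC, of which the core is a special case. Among 35116 such windows, 13.3% held the core and 41.8% the wider letters, so a match is common. The NQO1 window lies at chr16:69726511-69726810 on the minus strand, and is printed 5′ to 3′ in the direction of the gene. It held no core match and 1 wider match, TGAGGCTGC on the opposite strand from base -119 to -111 before the start, in capitals:
NQO1 promoter: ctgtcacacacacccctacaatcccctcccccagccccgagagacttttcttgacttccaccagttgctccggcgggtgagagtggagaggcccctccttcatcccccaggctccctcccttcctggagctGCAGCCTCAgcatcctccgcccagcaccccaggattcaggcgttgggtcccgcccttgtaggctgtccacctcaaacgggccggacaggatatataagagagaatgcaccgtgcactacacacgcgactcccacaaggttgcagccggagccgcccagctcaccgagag
A window without core letters says only that these letters are not in these 300 bases, and elements farther from the start were not searched. The reads had been aligned to the older build hg19, and no coordinates were converted.

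The aldo-keto reductases use NADPH to reduce aldehydes and ketones. AKR1C1, which acts on steroids and on aldehydes from lipid peroxidation, rose at 8 and 24 h after H2O2. Its untreated values were 2.51, 2.48 and 2.48. At 4 h after H2O2 they were 2.51, 2.50 and 2.58, overlapping the untreated ones. They reached 2.65, 2.63 and 2.77 at 8 h and 2.94, 2.92 and 3.01 at 24 h, above all untreated values. The differences were 0.19 at 8 h (BH-adjusted p = 0.000182) and 0.46 at 24 h (SE 0.03, BH-adjusted p = 1.92e-09). Without replicate 2, the 8 h difference was 0.22 (BH-adjusted p = 9.84e-05). At 4 h it was 0.04 (BH-adjusted p = 0.437), and quantile normalization turned it to -0.09 (BH-adjusted p = 0.0437), so its direction at 4 h depended on the scaling. All 9 NCS libraries lay between 2.47 and 2.53. The largest NCS difference from untreated cells was 0.03, at 8 h (BH-adjusted p = 0.643). H2O2 exceeded NCS by 0.16 at 8 h (BH-adjusted p = 0.00121) and by 0.47 at 24 h (BH-adjusted p = 1.24e-08).

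AKR1B10 reduces retinal and other aldehydes. It was the only one of the 4 aldo-keto reductases that was higher after NCS. Untreated values were 2.93, 2.88 and 2.96. At 24 h after H2O2 they were 3.20, 3.09 and 3.28, and at 24 h after NCS 3.14, 3.16 and 3.01, so both 24 h groups lay above the untreated group. The differences were 0.26 after H2O2 (BH-adjusted p = 0.00164) and 0.18 after NCS (BH-adjusted p = 0.028), and that between the agents at 24 h was 0.09 (95% interval -0.04 to 0.22, BH-adjusted p = 0.389). The NCS call was lost without untreated replicate 1 or 2 or NCS 24 h replicate 1 or 2, with adjusted p-values from 0.0579 to 0.109. At 8 h after H2O2 the replicates spread from 2.89 to 3.17, and the difference of 0.13 had an adjusted p of 0.123. Replicate 2 was the lowest of them, and without it the difference was 0.20 (BH-adjusted p = 0.00668).

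AKR1C2 and AKR1C3, which act on steroids and prostaglandins, could not be followed. AKR1C2 lay between -1.21 and -1.18 and AKR1C3 between -0.60 and -0.55, ranges of 0.03 and 0.05 over all 21 libraries. For AKR1C2, 16 libraries were within 0.005 of the lowest value, and for AKR1C3 13 were. Neither gene passed the test in any of the 13 comparisons in the fit of all 21 libraries, and values this close together give no usable difference. AKR1C1 and AKR1C2 also share stretches of identical sequence. Of 7006 distinct 150-base windows of the AKR1C1 transcripts in GENCODE release 29, 743 (10.6%) also occur in AKR1C2 transcripts and 0 in AKR1C3 transcripts. Reads from the shared stretches could have been assigned to either gene or dropped, so the split between AKR1C1 and AKR1C2 is uncertain.

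The start-site regions of AKR1C1 and AKR1C2 are set side by side because only AKR1C1 gave usable differences while the sequences at their starts are nearly the same. Both sequences come from RefSeq on GRCh38.p14, at chr10:4963165-4963464 on the plus strand and chr10:5003808-5004107 on the minus strand. They align over 292 bases, of which 288 (98.6%) are identical. Each held the same wider match, TGAGCTGGC on the opposite strand, from base -41 to -33 in AKR1C1 and from -45 to -37 in AKR1C2, in capitals below:
AKR1C1 promoter: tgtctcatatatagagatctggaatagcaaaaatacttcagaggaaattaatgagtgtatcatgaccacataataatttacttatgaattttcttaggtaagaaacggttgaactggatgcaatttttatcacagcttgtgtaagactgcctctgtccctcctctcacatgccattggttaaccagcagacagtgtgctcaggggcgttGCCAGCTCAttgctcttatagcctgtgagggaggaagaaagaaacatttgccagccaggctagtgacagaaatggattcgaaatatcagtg
AKR1C2 promoter: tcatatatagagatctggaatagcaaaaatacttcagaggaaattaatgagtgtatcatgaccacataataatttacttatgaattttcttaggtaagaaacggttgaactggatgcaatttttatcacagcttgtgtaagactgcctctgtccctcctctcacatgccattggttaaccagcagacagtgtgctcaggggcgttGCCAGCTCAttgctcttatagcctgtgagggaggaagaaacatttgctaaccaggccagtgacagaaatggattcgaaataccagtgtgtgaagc
This pair was chosen after the values were seen. The 2 windows of AKR1C3 held neither motif, and AKR1B10 had no entry among the windows.

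EPHX1, the microsomal epoxide hydrolase, converts reactive epoxides to diols. It rose at 8 and 24 h after H2O2 and, by less, at 24 h after NCS. Untreated values were 8.60, 8.52 and 8.46. At 4 h after H2O2 they were 8.71, 8.64 and 8.60, at 8 h 8.99, 8.80 and 8.88, and at 24 h 9.32, 9.34 and 9.26. The lowest 4 h value lay just under the highest untreated one, and the 8 h and 24 h values lay above all untreated ones. The difference from untreated cells was 0.12 at 4 h (BH-adjusted p = 0.0862), 0.36 at 8 h (BH-adjusted p = 3.29e-05) and 0.78 at 24 h (SE 0.05, BH-adjusted p = 9.81e-10). The 4 h difference passed without untreated replicate 1 (BH-adjusted p = 0.0468) and under quantile normalization (0.18, BH-adjusted p = 0.016). Without replicate 2, that at 8 h was 0.40 (BH-adjusted p = 1.65e-05). After NCS, the values at 4 and 8 h lay within the untreated range or within 0.01 of it, and at 24 h they were 8.69, 8.92 and 8.78, all above it. The 24 h difference of 0.27 passed (BH-adjusted p = 0.00059). H2O2 exceeded NCS by 0.32 at 8 h (BH-adjusted p = 0.00015) and by 0.51 at 24 h (BH-adjusted p = 1.53e-06). Of the 3 RefSeq windows of EPHX1, 1 held a core match, TGACTTGGC from base -78 to -70, the only core match among the 10 windows of the 7 genes with an entry.

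OSGIN1 encodes a protein induced by oxidative stress that restrains growth. It rose after both agents at 4 h, and further at 8 h after H2O2. Untreated values were 8.51, 8.73 and 8.78, a wider spread than in the treated groups at 4 h. At 4 h they were 9.23, 9.23 and 9.23 after H2O2 and 9.28, 9.28 and 9.22 after NCS. The difference from untreated cells was 0.56 after H2O2 (SE 0.07, BH-adjusted p = 4.21e-06) and 0.59 after NCS (BH-adjusted p = 8.81e-06), and that between the agents was -0.03 (95% interval -0.18 to 0.12, BH-adjusted p = 0.784). At 8 h after H2O2, OSGIN1 reached 9.89, 9.61 and 9.92, above every library of the other groups. This was 1.13 above untreated cells (BH-adjusted p = 1.14e-09), and without replicate 2, the lowest of the group, 1.23 (BH-adjusted p = 3.89e-11). After NCS the 8 h values were 9.06, 9.19 and 9.22, 0.48 above untreated cells (BH-adjusted p = 4.89e-05). The agents differed by 0.65 at 8 h (BH-adjusted p = 1.35e-06).

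By 24 h OSGIN1 had come down after both agents. It was 9.06, 9.14 and 9.06 after H2O2 and 8.84, 8.78 and 8.86 after NCS. Relative to 8 h it fell by 0.72 after H2O2 (BH-adjusted p = 1.64e-07) and by 0.33 after NCS (BH-adjusted p = 0.0016). It was still 0.41 above untreated cells after H2O2 (BH-adjusted p = 0.000112), while the NCS difference of 0.16 did not pass (BH-adjusted p = 0.105). The latter passed in 5 of 27 alternative fits, among them those without untreated replicate 3 (BH-adjusted p = 0.0452) and without H2O2 8 h replicate 2 (BH-adjusted p = 0.0328). H2O2 exceeded NCS by 0.26 at 24 h (BH-adjusted p = 0.0144), a call lost without replicate 2 of either group (BH-adjusted p = 0.0601 and 0.0635). OSGIN1 overlaps another annotated gene on its own strand, and NQO1 and EPHX1 overlap antisense genes. The strand setting of the counting was not stated, so reads of the antisense neighbours could be counted with NQO1 and EPHX1. Reads from a stretch that OSGIN1 shares with its neighbour could have been assigned to either gene or dropped.

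The 3 exporters of the ABCC family, also called multidrug resistance-associated proteins, pump conjugates of glutathione and glucuronic acid out of the cell. They moved in 3 different ways. ABCC2, the exporter of the apical membrane in polarized epithelia, rose early and briefly after H2O2 and did not pass after NCS. Untreated values were 5.07, 5.09 and 4.93. At 4 h after H2O2 they were 6.74, 6.74 and 6.75, at 8 h 5.81, 5.70 and 5.98, and at 24 h 5.190, 5.199 and 5.139. The 4 h libraries were the highest of the series for this gene, and the 24 h libraries were close to the untreated ones without overlapping them. The difference from untreated cells was 1.71 at 4 h (SE 0.07, 95% interval 1.56 to 1.86, BH-adjusted p = 1.87e-12), 0.80 at 8 h (BH-adjusted p = 6.09e-08) and 0.15 at 24 h (BH-adjusted p = 0.119). Without replicate 2 the 8 h difference was 0.87 (BH-adjusted p = 3.47e-08). The 9 NCS libraries ranged from 4.90 to 5.17, and the NCS differences were -0.03, -0.07 and 0.03 at 4, 8 and 24 h. H2O2 exceeded NCS by 1.74 at 4 h (BH-adjusted p = 2.12e-12) and by 0.87 at 8 h (BH-adjusted p = 4.78e-08), and by 0.12 at 24 h (95% interval -0.03 to 0.27, BH-adjusted p = 0.294).

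The ABCC2 window is shown because this gene had the widest range of group means among the 10, 1.78. It lies at chr10:99782390-99782689 on the plus strand of GRCh38.p14 and held no core match and 1 wider match, TGATGCTGC on the same strand as the gene from base -173 to -165, in capitals:
ABCC2 promoter: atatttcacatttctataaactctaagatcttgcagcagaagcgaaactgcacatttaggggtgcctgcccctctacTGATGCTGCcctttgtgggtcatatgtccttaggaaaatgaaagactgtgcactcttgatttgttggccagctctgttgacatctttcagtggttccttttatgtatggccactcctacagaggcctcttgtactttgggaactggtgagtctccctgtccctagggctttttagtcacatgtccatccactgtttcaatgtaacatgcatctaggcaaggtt
ABCC1 and ABCC3 had no entry among the RefSeq windows, and the window of OSGIN1 held 2 wider matches, TGAACTTGC from base -124 to -116 and TGAGTCAGC from -99 to -91, both on the opposite strand.

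ABCC3, the exporter of the basolateral membrane, rose after both agents, most at 24 h. Untreated values were 8.51, 8.49 and 8.58. At 4 h after H2O2 they were 8.86, 8.70 and 8.88, at 8 h 9.01, 9.01 and 8.99, and at 24 h 10.09, 10.17 and 10.12. The NCS values were 8.83, 8.76 and 8.95 at 4 h, followed by 8.81, 8.83 and 8.85 at 8 h, then 9.29, 9.27 and 9.36 at 24 h. Every treated library lay above every untreated one. The difference from untreated cells was 0.29 at 4 h (BH-adjusted p = 7.24e-05), 0.47 at 8 h (BH-adjusted p = 2.84e-07) and 1.60 at 24 h after H2O2 (SE 0.05, 95% interval 1.496 to 1.698, BH-adjusted p = 9.68e-15). After NCS it was 0.32 (BH-adjusted p = 9.41e-05), 0.30 (BH-adjusted p = 0.000103) and 0.78 (BH-adjusted p = 1.73e-10). Without replicate 2 of H2O2 at 8 h, the 8 h difference after H2O2 was 0.47 (BH-adjusted p = 1.67e-06). The agents could not be told apart at 4 h, with a difference of -0.03 (95% interval -0.13 to 0.07, BH-adjusted p = 0.663), and H2O2 exceeded NCS by 0.18 at 8 h (BH-adjusted p = 0.00782) and by 0.82 at 24 h (BH-adjusted p = 1e-09). In the order of group means, H2O2 at 24 h came before NCS at 24 h and H2O2 at 8 h, followed by both 4 h groups and NCS at 8 h, whose libraries overlapped, and by untreated cells.

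ABCC1, the broadly expressed exporter of the family, moved least of the 3 and mostly downward. Untreated values were 10.96, 10.94 and 10.96. At 4 h after H2O2 they were 10.68, 10.78 and 10.67, below every other library of the series, the nearest being NCS 8 h replicate 1 at 10.79. The difference from untreated cells was -0.24 (SE 0.03, BH-adjusted p = 2.38e-06). At 8 and 24 h after H2O2 the differences were -0.07 (BH-adjusted p = 0.0694) and -0.06 (BH-adjusted p = 0.166). The former passed without H2O2 4 h replicate 2 (BH-adjusted p = 0.0348), and without replicate 2 of its own group it was -0.07 (BH-adjusted p = 0.135). After NCS, ABCC1 was lower at 8 h only, at 10.79, 10.83 and 10.89, a difference of -0.12 (BH-adjusted p = 0.00597), and quantile normalization ended that call (-0.08, BH-adjusted p = 0.0607). At 24 h after NCS it was 10.980, 10.978 and 11.002, the highest group. The difference of H2O2 from NCS was -0.21 at 4 h (BH-adjusted p = 1.71e-05). At 24 h the difference was -0.09 (BH-adjusted p = 0.0429), a call lost in 12 of 27 alternative fits, 10 of which left out 1 library: any untreated or NCS 24 h replicate, H2O2 24 h replicate 1 or 2, or replicate 2 of NCS at 4 or 8 h, with adjusted p-values from 0.05 to 0.179.

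**Figure D2:**
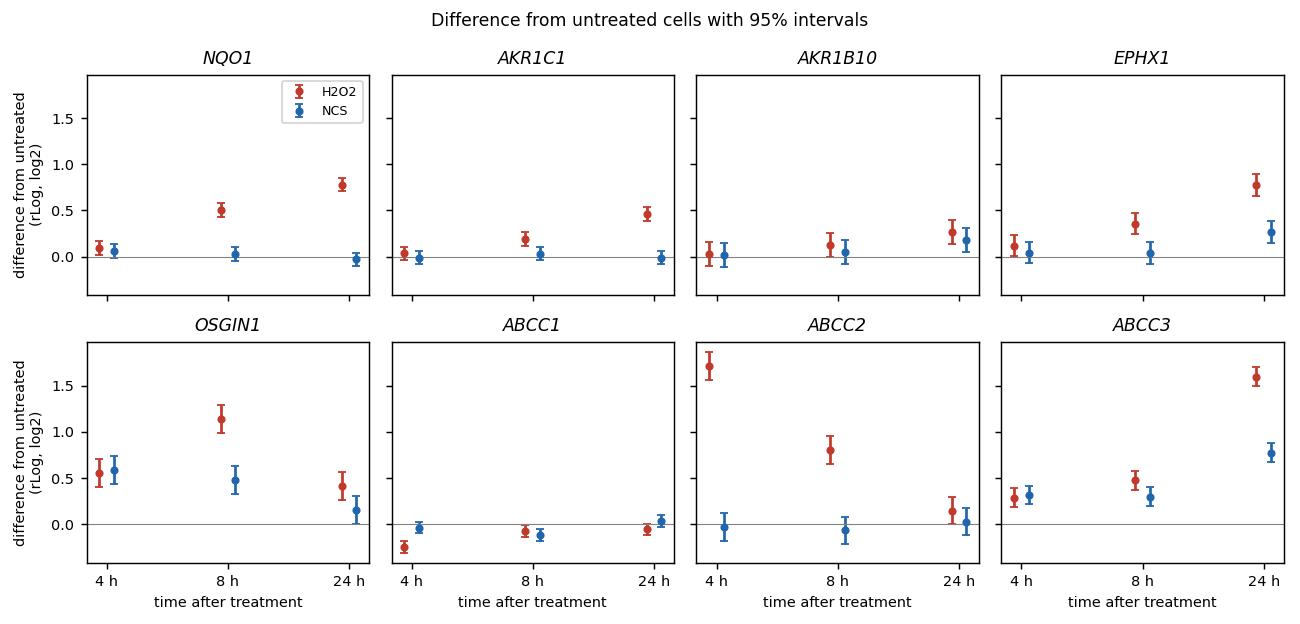
Difference of the mean rLog value from untreated cells (log2, y axis) at 4, 8 and 24 h (x axis) after H2O2 (red) or NCS (blue) for the 8 genes with usable differences. Bars are 95% intervals from the limma fit, and both agents share the 3 untreated libraries. ABCC2 started at 1.71 after H2O2 and came down to 0.15, ABCC3 climbed from 0.29 to 1.60, and NQO1 and ABCC2 stayed within 0.07 of 0 after NCS.

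More of the 10 genes were higher than in untreated cells after H2O2 than after NCS at each time, and both sets of counts rest on the same 3 untreated libraries. The same held for all genes tested. Their shares higher were 26.2% against 7.47% at 4 h, 18.8% against 10.5% at 8 h and 20.2% against 19.6% at 24 h. At 4 h after H2O2, 4 of the 10 were higher (NQO1, ABCC2, ABCC3 and OSGIN1) and 1 was lower (ABCC1), where 26.2% of all genes tested were higher and 19.7% lower. The NQO1 call at 4 h was lost in 6 of 27 alternative fits. At 8 h, 6 were higher and 0 lower against 18.8% and 18.6% of all genes. These were NQO1, AKR1C1, ABCC2, ABCC3, EPHX1 and OSGIN1. Without replicate 2 of that group AKR1B10 and AKR1C2 also passed, and the share of all genes in that fit is not given. For AKR1C2 that difference was 0.03, which is not usable. At 24 h, 6 were higher and 0 lower against 20.2% and 19.9%, with AKR1B10 in and ABCC2 out. The median difference of the 10 genes was 0.07, 0.28 and 0.34 at 4, 8 and 24 h, while that of all genes lay within 0.01 of 0.

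After NCS, 2 of the 10 genes were higher and 0 lower at 4 h, against 7.47% and 9.72% of all genes. At 8 h the numbers were 2 and 1, against 10.5% and 13.3%. At 24 h they were 3 and 0, against 19.6% and 18.4%. ABCC3 was among the higher genes at all 3 times, OSGIN1 at 4 and 8 h, and AKR1B10 and EPHX1 at 24 h. The medians of the 10 differences were 0.02, 0.03 and 0.03. At an unadjusted p under 0.05 in the limma fit, ABCC1 was also lower at 8 h after H2O2, and in the other comparisons with untreated cells in which 0 of the 10 genes were lower the number stayed at 0.

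A difference above 1 was reached by 1 gene at each time after H2O2, a different one each time. ABCC2 passed it at 4 h, as 0.655% of all genes did, OSGIN1 at 8 h (0.32% of all genes) and ABCC3 at 24 h (0.325%). ABCC2 also exceeded 1 between H2O2 and NCS at 4 h, as did 0.559% of genes. The largest NCS difference from untreated cells among the 10 was 0.78, that of ABCC3 at 24 h.

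**Figure D3:**
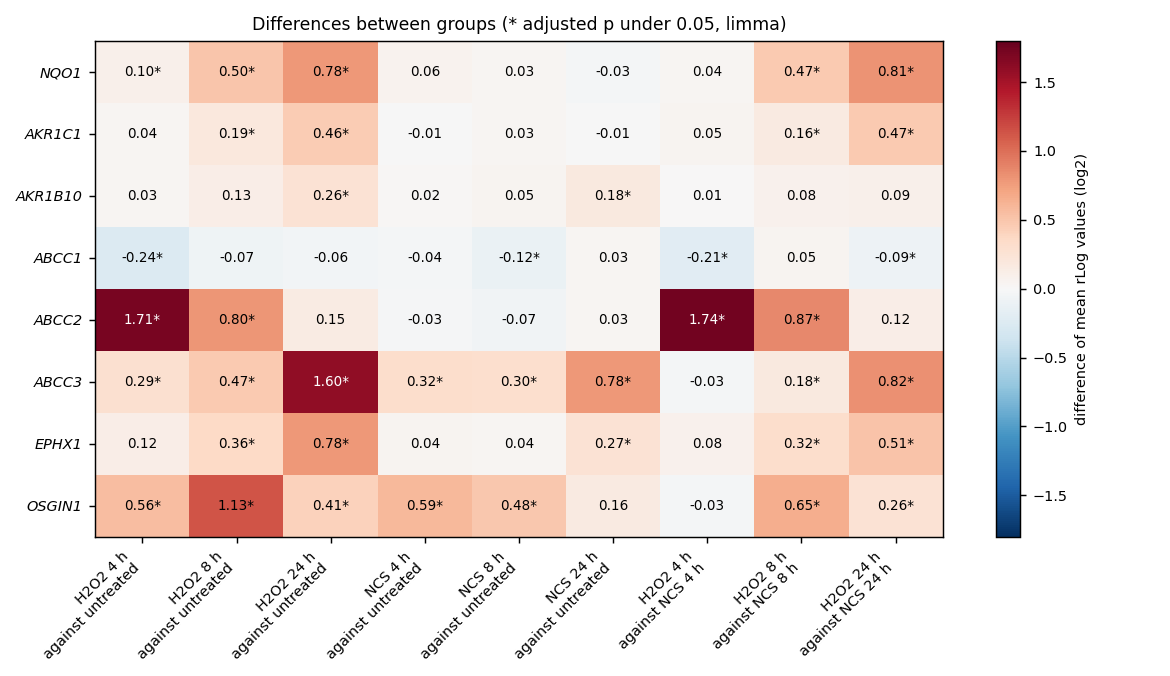
Differences of mean rLog values (log2, colour and number) for 8 genes (rows) in the 6 comparisons with untreated cells and the 3 of H2O2 with NCS (columns). An asterisk marks an adjusted p-value under 0.05 from limma, and AKR1C2 and AKR1C3 are left out because they hardly varied. NCS at 4 h has asterisks for ABCC3 and OSGIN1 only, and H2O2 at 24 h for 6 genes.

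Between the agents, the count of differing genes grew after 4 h. At 4 h, ABCC2 was higher and ABCC1 lower after H2O2 than after NCS, 1 gene in each direction, against 26.3% and 18% of all genes. At 8 h, 6 genes were higher and 0 lower, against 18.7% and 15.4%. Without H2O2 8 h replicate 2, AKR1B10 (0.16, BH-adjusted p = 0.0371) and AKR1C2 (0.03, not usable) also passed. The share of all genes in that fit is not given. At 24 h, 5 were higher and 1 lower, against 11% and 10.9%. NQO1, AKR1C1, ABCC3, EPHX1 and OSGIN1 were higher at both 8 and 24 h. Whether the difference between the agents itself changed from 4 to 24 h was tested as an interaction, in which 6 genes were higher and 1 lower, against 16.6% and 22.7% of all genes. The interaction was 0.77 for NQO1 (BH-adjusted p = 1.45e-09), 0.43 for AKR1C1 (BH-adjusted p = 1.56e-06), 0.85 for ABCC3 (BH-adjusted p = 2.39e-08) and 0.43 for EPHX1 (BH-adjusted p = 0.000199). It was -1.62 for ABCC2 (BH-adjusted p = 1.24e-09), whose excess after H2O2 was early. For OSGIN1 (0.29, BH-adjusted p = 0.0317) and ABCC1 (0.12, BH-adjusted p = 0.0336) it depended on the fit and was lost in 8 and in 9 of 27 alternative fits, and with 1 library left out the adjusted p-values of the lost calls ran from 0.0516 to 0.074 and from 0.0508 to 0.0911.

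Over time after H2O2, the 10 genes did not move together. From 4 to 8 h, 6 were higher and ABCC2 was lower, against 18% and 27.7% of all genes. ABCC1 was among the 6, with a rise of 0.17 (BH-adjusted p = 0.000118) from its low point at 4 h. AKR1C1 rose by 0.15 (BH-adjusted p = 0.00109), and with only those 2 groups in the fit the adjusted p was 0.0559. From 8 to 24 h, NQO1, AKR1C1, ABCC3 and EPHX1 were higher and ABCC2 and OSGIN1 lower, 4 and 2 genes, against 19.4% and 23.2%. ABCC3 rose by 1.12 in that interval (BH-adjusted p = 3.57e-12), a step above 1 that 0.0406% of all genes made. ABCC2 fell by 0.91 from 4 to 8 h (BH-adjusted p = 9.92e-09) and by 0.65 from 8 to 24 h (BH-adjusted p = 4.93e-07).

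After NCS, none of the 10 genes passed between 4 and 8 h in the limma fit, with 0 higher and 0 lower against 6.16% and 7.5% of all genes. At an unadjusted p under 0.05 there was 1, ABCC1, whose difference was -0.08 (BH-adjusted p = 0.0847) and which passed without NCS 8 h replicate 3 (BH-adjusted p = 0.0303) or H2O2 4 h replicate 2 (BH-adjusted p = 0.0443). From 8 to 24 h, ABCC1, ABCC3 and EPHX1 were higher and OSGIN1 was lower, 3 and 1 genes, against 14.9% and 15%. ABCC3 rose by 0.48 (BH-adjusted p = 3.25e-07), EPHX1 by 0.23 (BH-adjusted p = 0.00345) and ABCC1 by 0.15 (BH-adjusted p = 0.000625).

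NQO1, AKR1C1, AKR1B10, ABCC3 and EPHX1 are grouped here because all 5 had their highest mean at 24 h after H2O2, so positive correlations among them are in part set by the grouping. Over the 21 libraries, Pearson's r of their 10 pairs ran from 0.623 between NQO1 and AKR1B10 to 0.958 between NQO1 and AKR1C1. ABCC2, OSGIN1 and ABCC1 each had lower r to these 5 genes. For ABCC2 it ran from -0.141 (ABCC3) to 0.117 (NQO1), for OSGIN1 from 0.0223 (ABCC3) to 0.456 (NQO1). For ABCC1 it ran from -0.0277 (NQO1) to 0.247 (AKR1B10). ABCC2 had r of -0.755 to ABCC1 and 0.44 to OSGIN1, and ABCC1 had -0.355 to OSGIN1. These values describe 7 group means with 3 libraries around each, and they share the normalization of the table.

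Among 11677 genes with a mean value of at least 5, the 5 with a course most like that of ABCC2 were MMP25, MAFF, ADSSL1, COL11A2 and ACAP1, with r from 0.98 to 0.991 over the 21 libraries. Their means rose from untreated cells to 4 h after H2O2, for MMP25 from 5.26 to 7.49, and were lower again at 8 h. MAFF, one of the small MAF proteins, is on the list of NRF2 regulators. Among the 5 most like ABCC3 were ACSL1, an acyl-CoA synthetase, CTSD, a lysosomal protease, COL6A3, a collagen chain, and ABLIM3, an actin-binding protein, with r from 0.965 to 0.976.

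**Figure D4:**
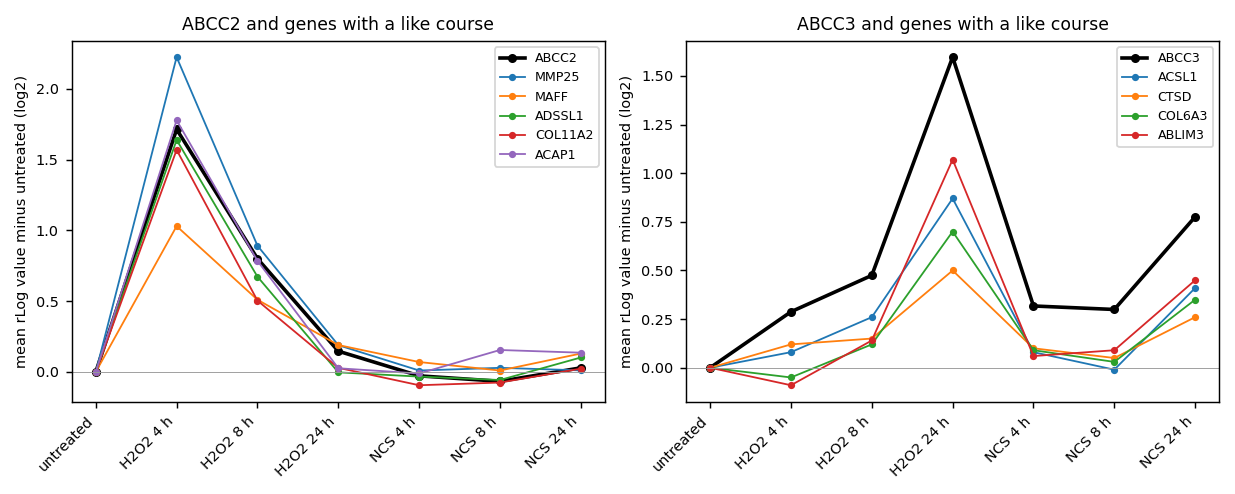
Mean rLog value of each group minus that of untreated cells (log2, y axis) for ABCC2 (left, black) and ABCC3 (right, black) with genes among the 5 of highest Pearson correlation with each over 21 libraries, 5 on the left and 4 on the right. The ABCC2 set peaked at 4 h after H2O2, and the ABCC3 set at 24 h after H2O2 with a smaller rise at 24 h after NCS.

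The other genes of the pathway were taken from lists of textbook members. At 4, 8 and 24 h after H2O2, 26.2%, 18.8% and 20.2% of all genes were higher and 19.7%, 18.6% and 19.9% lower. At the same times after NCS, 7.47%, 10.5% and 19.6% were higher and 9.72%, 13.3% and 18.4% lower. Of 25 other NRF2 target genes, 18 were higher and 0 lower at 4 h after H2O2, 22 and 1 at 8 h, then 19 and 3 at 24 h. After NCS the numbers were 7 and 1, 4 and 2, and 8 and 5. Over 6 alternative fits, the higher counts ran from 17 to 18, 18 to 22 and 18 to 19 after H2O2. After NCS they ran from 6 to 9, 2 to 8 and 8 to 10, and the lower count at 4 h from 1 to 3. The median difference of this list was 0.14, 0.34 and 0.28 after H2O2 and 0.03, 0.02 and 0.03 after NCS. HMOX1, the heme oxygenase that degrades heme, was 3.44 higher at 4 h after H2O2 (BH-adjusted p = 3.69e-18), 2.50 at 8 h and 0.76 at 24 h (BH-adjusted p = 1.27e-09), an early peak like that of ABCC2, and 0.88, 0.45 and 0.27 higher after NCS (BH-adjusted p = 1.87e-09, 4.34e-06 and 0.000539). SQSTM1, an autophagy adaptor that binds KEAP1, rose later, by 0.44 at 4 h and 0.87 at 24 h after H2O2 (BH-adjusted p = 3.03e-08 and 1.18e-12). It was also 0.19, 0.11 and 0.32 higher at 4, 8 and 24 h after NCS (BH-adjusted p = 0.00172, 0.0436 and 1.54e-06). At 24 h SQSTM1 was 0.55 higher after H2O2 than after NCS (BH-adjusted p = 7.1e-09). CBR3, a carbonyl reductase, went the other way, with differences of -0.66 at 24 h after H2O2 (BH-adjusted p = 3.7e-07) and -0.50 at 24 h after NCS (BH-adjusted p = 1.21e-05). Between the agents, 15 of the 25 were higher after H2O2 at 4 h and 1 lower, 21 and 0 at 8 h, then 19 and 0 at 24 h. The shares of all genes were 26.3%, 18.7% and 11% higher and 18%, 15.4% and 10.9% lower.

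Of 9 regulators of NRF2, 6 were higher and 2 lower at 4 h after H2O2, 8 and 0 at 8 h, then 3 and 2 at 24 h. The shares of all genes at these times after H2O2 were 26.2%, 18.8% and 20.2% higher and 19.7%, 18.6% and 19.9% lower. NFE2L2 itself was 0.24 higher at 4 h (BH-adjusted p = 4.1e-05), 0.31 at 8 h (BH-adjusted p = 3.24e-06) and 0.06 at 24 h (BH-adjusted p = 0.267). After NCS it was lower, with differences of -0.23 at 4 h (BH-adjusted p = 0.000276) and -0.12 at 8 h (BH-adjusted p = 0.0239). KEAP1 differed by -0.09 at 4 h after H2O2 (BH-adjusted p = 0.0432) and by 0.17 at 8 h (BH-adjusted p = 0.000672). BACH1, the repressor, was 0.51 higher at 4 h (BH-adjusted p = 1.37e-10) and 0.24 at 8 h (BH-adjusted p = 2.67e-06), and at 24 h its difference was 0.04 (BH-adjusted p = 0.352). The small MAF genes MAFK and MAFG were 1.09 and 1.08 higher at 4 h after H2O2 (BH-adjusted p = 1.59e-11 and 7.82e-15), and by 24 h MAFK was at -0.04 (BH-adjusted p = 0.672) and MAFG at 0.37 (BH-adjusted p = 6.72e-09). RBX1 differed by 0.16 at 4 h (BH-adjusted p = 0.00435) and by -0.15 at 24 h after H2O2 (BH-adjusted p = 0.00668). BACH1 was also 0.14 and 0.12 higher at 8 and 24 h after NCS (BH-adjusted p = 0.00105 and 0.0026). MAFK was 0.20 and 0.17 higher at 4 and 8 h after NCS (BH-adjusted p = 0.012 and 0.0263). At 24 h after NCS, MAFG was 0.10 higher (BH-adjusted p = 0.00969) and KEAP1 differed by -0.14 (BH-adjusted p = 0.00459). After NCS, 1 regulator was higher and 2 lower at 4 h, 2 and 2 at 8 h, then 4 and 2 at 24 h. The shares of all genes after NCS were 7.47%, 10.5% and 19.6% higher and 9.72%, 13.3% and 18.4% lower. Over the alternative fits the higher counts ran from 6 to 6, 6 to 8 and 3 to 5 after H2O2 and from 1 to 3, 1 to 2 and 4 to 4 after NCS, and 2 lower became 0 at 24 h after NCS under quantile normalization. RNA levels do not show how much NRF2 protein was present.

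At 4, 8 and 24 h after H2O2, 26.2%, 18.8% and 20.2% of all genes were higher and 19.7%, 18.6% and 19.9% lower. Of 9 other aldo-keto reductases measured of 10 listed, 2 were higher and 0 lower at 4 h after H2O2, 0 and 0 at 8 h, then 1 and 0 at 24 h. AKR7L was 0.64 higher at 4 h (BH-adjusted p = 5.69e-07) and the other one, AKR1D1, by less than 0.01 at a value near -2.18, which like those of AKR1C2 and AKR1C3 is no usable difference. The 2 higher at 4 h became 1 with aligned medians or without the trend and 0 with a mean value of at least 5, and the 0 lower at 24 h became 2 with aligned medians. AKR1B1, the aldose reductase, was 0.18 higher at 24 h after H2O2 (BH-adjusted p = 0.00118) and differed by -0.24 at 24 h after NCS (BH-adjusted p = 4.67e-05). Of these 9 reductases, 0 were higher at each time after NCS, and 0, 0 and 1 were lower at 4, 8 and 24 h. Over the alternative fits the NCS higher count at 4 h ran from 0 to 1 and the lower count at 8 h from 0 to 4. Of 8 other ABC exporters, 2 were higher and 3 lower at 4 h after H2O2, 1 and 2 at 8 h, then 1 and 1 at 24 h. The higher counts of both lists were near or below the shares of all genes. The lower counts of the exporters were 3 of 8 at 4 h and 2 of 8 at 8 h, beside 19.7% and 18.6% of all genes. With only 8 genes, no difference from those shares is read from these counts. ABCC10 went from -0.37 at 4 h (BH-adjusted p = 5.74e-08) to 0.29 at 24 h (BH-adjusted p = 1.17e-06), ABCC6 was 0.08 higher at 4 h (BH-adjusted p = 0.0111), and ABCB1, the P-glycoprotein, differed by -0.19 at 24 h (BH-adjusted p = 0.0178). The 2 higher at 4 h became 0 in 4 of the 6 alternative fits, and the 1 higher at 8 h became 0 with aligned medians and with only 2 groups. After NCS, 1 exporter was higher at each time and 2, 1 and 1 were lower, and aligned medians gave 4 lower at 8 h. The higher one was ABCC10, by 0.16, 0.26 and 0.32 at 4, 8 and 24 h (BH-adjusted p = 0.00301, 1.16e-05 and 3.3e-07). Its difference between H2O2 and NCS at 24 h was -0.03 (BH-adjusted p = 0.628). The shares of all genes after NCS were 7.47%, 10.5% and 19.6% higher and 9.72%, 13.3% and 18.4% lower.

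Of 19 other phase 1 and phase 2 enzymes measured of 21 listed, 5 were higher and 1 lower at 4 h after H2O2, 4 and 3 at 8 h, then 6 and 1 at 24 h. The shares of all genes were 26.2%, 18.8% and 20.2% higher and 19.7%, 18.6% and 19.9% lower. The 5 of 19 higher at 4 h was near the share of all genes. Over the alternative fits the higher counts ran from 3 to 5, 3 to 4 and 6 to 8 and the lower ones from 1 to 3, 2 to 3 and 1 to 4. After NCS, 0 of these enzymes were higher and 1 lower at 4 h, 0 and 2 at 8 h, then 6 and 1 at 24 h. The shares of all genes after NCS were 7.47%, 10.5% and 19.6% higher and 9.72%, 13.3% and 18.4% lower. The NCS counts ran from 0 to 1, 0 to 4 and 6 to 6 higher and from 1 to 1, 1 to 6 and 0 to 1 lower. GSTO1, a glutathione transferase, was 0.46 higher at 24 h after H2O2 (BH-adjusted p = 3.06e-07) and ALDH1A1, a retinal dehydrogenase, differed by -0.27 (BH-adjusted p = 5.6e-06). At 24 h after NCS, GSTO1 was 0.25 higher (BH-adjusted p = 0.000339) and ALDH1A1 differed by -0.10 (BH-adjusted p = 0.0323). The differences of H2O2 from NCS at 24 h were 0.21 for GSTO1 (BH-adjusted p = 0.00454) and -0.17 for ALDH1A1 (BH-adjusted p = 0.00215). Of 7 genes of the AHR pathway, the other main regulator of xenobiotic enzymes, 1 was higher and 5 lower at 4 h after H2O2, 0 and 3 at 8 h, then 1 and 1 at 24 h. After NCS the numbers were 0 and 5, 0 and 2, and 2 and 2. CYP1A1, CYP1B1 and ALDH3A1 are also on the list of phase 1 and phase 2 enzymes, so their calls count in both lists. The shares of all genes in these comparisons were 26.2%, 18.8% and 20.2% higher and 19.7%, 18.6% and 19.9% lower after H2O2. After NCS they were 7.47%, 10.5% and 19.6% higher and 9.72%, 13.3% and 18.4% lower. Over the alternative fits the lower counts ran from 5 to 5, 3 to 3 and 0 to 2 after H2O2. They ran from 4 to 5, 2 to 4 and 1 to 2 after NCS. The receptor AHR differed by -0.42 at 4 h after H2O2 (BH-adjusted p = 1.88e-06) and by -0.22 at 4 h after NCS (BH-adjusted p = 0.00434). At 24 h it differed by -0.16 after H2O2 (BH-adjusted p = 0.015) and by -0.15 after NCS (BH-adjusted p = 0.02). Its partner ARNT differed by -0.27 at 4 h (BH-adjusted p = 8.32e-08) and by 0.20 at 24 h after H2O2 (BH-adjusted p = 1.82e-06). After NCS, ARNT differed by -0.09 at 4 h (BH-adjusted p = 0.0116) and by 0.21 at 24 h (BH-adjusted p = 1.76e-06). CYP1A1, the classical target of AHR, was 0.17 higher at 4 h after H2O2 (BH-adjusted p = 3.54e-07) at a value near 1.43. CYP1B1 differed by -0.30 at 4 h after H2O2 (BH-adjusted p = 0.00445) and by -0.48 at 4 h after NCS (BH-adjusted p = 0.000252).

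**Figure D5:**
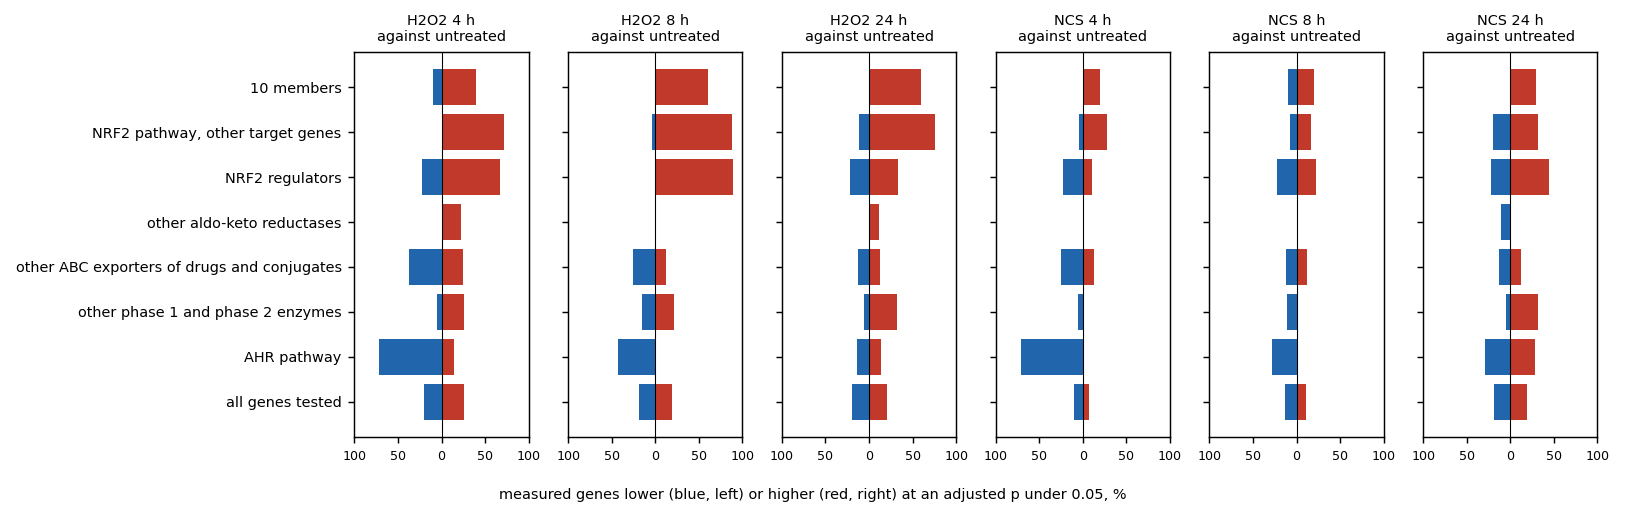
Percent of measured genes higher (red, to the right) or lower (blue, to the left) than untreated cells, with an adjusted p-value under 0.05 (x axis), for the 10 genes, the 6 other gene lists and all 19694 genes tested (rows) in the 6 comparisons with untreated cells (panels). The other NRF2 target genes, with 18, 22 and 19 of 25 higher after H2O2 at 4, 8 and 24 h, are drawn above the bars of all genes (26.2%, 18.8% and 20.2% higher). All panels use the same 3 untreated libraries.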

How the data were processed

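RNA was sequenced by the authors from poly(A)-selected, stranded libraries as 150-base read pairs, aligned with HISAT2 to hg19 per the labels, counted per gene with htseq-count in Galaxy and transformed with DESeq2 to rLog values. The annotation and the strand setting of the counting are not given in the sources used here. The deposited values are on a log2 scale, normalized over all 21 libraries, and hold no counts, so depth is unknown. No further normalization was applied.

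The 19694 genes with differing values were fitted with limma 3.58.1 in R 4.3.3 allowing the variance to follow the mean value, and p-values were adjusted by the Benjamini-Hochberg method. There were 13 comparisons, 6 with untreated cells, 3 of H2O2 with NCS and 4 over time, and 1 interaction. The fit was tested on simulated data. The labels give each group replicates 1 to 3 and do not say that a number was shared between groups. The members and gene lists were chosen with earlier results of these data known. Named beyond the 10 genes are, per list, the largest and smallest passing difference at 4 and 24 h after H2O2, the regulators NFE2L2, KEAP1 and BACH1, HMOX1, and the 5 genes most correlated with each of the 2 widest members. Alternatives were quantile normalization, aligned library medians, a minimum mean value of 5, no trend, only the groups compared, a replicate block, a difference over 0.58, and each library left out. Promoters are RefSeq windows on GRCh38.p14. Python 3.11.15 was used outside R. For 1 gene among those named by this rule, results are not reported here.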

Additional observations from a re-analysis of the deposited data

Results flagged for a closer look

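For 7 of the 10 genes the difference between H2O2 and NCS was not the same at 4 and at 24 h, by the limma test of the interaction itself, which called 16.6% of all genes higher and 22.7% lower. The difference grew from 4 to 24 h by 0.77 for NQO1, 0.43 for AKR1C1, 0.85 for ABCC3, 0.43 for EPHX1, 0.29 for OSGIN1 and 0.12 for ABCC1, and for ABCC2 it changed by -1.62. For ABCC1 this means that a negative difference at 4 h (-0.21) came nearer to 0 at 24 h (-0.09). For OSGIN1 it went from -0.03 to 0.26. The calls of OSGIN1 and ABCC1 were lost in 8 and in 9 of 27 alternative fits. The values of AKR1B10 were 0.01 and 0.09 at these times, with an interaction of 0.08 (adjusted p = 0.521).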

How the results depend on the processing

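Depth is unknown, so precision rests on 3 libraries per group alone, and for AKR1C2 and AKR1C3 the table gives no usable difference. Of the 63 differences past the threshold, 0 changed direction in 369 values from 6 alternative fits or in 1323 with 1 library left out, while 7 and 36 of these values no longer passed. AKR1C1 and AKR1B10 had low mean values over the libraries, 2.59 and 3.02. They were not in the fit with a mean value of at least 5, so their differences were not checked by it. Requiring a difference over 0.58 left 1 gene higher and 0 lower for H2O2 at 4 h, 2 higher at 8 h and 3 higher at 24 h, 1 higher for NCS at 4 h, 0 higher and 0 lower at 8 h and 1 higher at 24 h. It left 0 lower between H2O2 and NCS at 4 h, 2 higher at 8 h, and 2 higher and 0 lower at 24 h. Over time it left 0 higher for H2O2 from 4 to 8 h, 1 higher from 8 to 24 h, 0 higher and 0 lower for NCS from 8 to 24 h, and 2 higher in the interaction. The shares of all genes at a limit of 0.58 are not given, so these counts cannot be set against them. Quantile normalization gave 2 lower for H2O2 at 4 h, 0 lower for NCS at 8 h and 0 lower for H2O2 against NCS at 24 h. With only the groups compared, 1 was lower for H2O2 at 8 h, and with aligned medians 5 were higher for NCS from 8 to 24 h. The cause of these changes was not tested.

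The deviations of libraries with the same replicate number from their group means had a mean correlation of 0.0274 (range -0.149 to 0.213). For different numbers the mean was -0.0137, a value largely fixed by centring each group on its own mean. It is therefore no independent reference, and whether libraries were paired was not tested. The replicate block left 0 lower for H2O2 against NCS at 24 h, where ABCC1 had an adjusted p of 0.0568, and changed no other call among the 8 genes with usable differences. Directions turned only for differences that did not pass. Under quantile normalization, H2O2 at 4 h against NCS at 4 h was -0.000677 for NQO1, -0.0736 for AKR1C1, -0.134 for AKR1B10, 0.0196 for ABCC3 and 0.0235 for OSGIN1, and against untreated cells -0.086 for AKR1C1, which then passed as lower (adjusted p = 0.0437), and -0.119 for AKR1B10. With aligned medians ABCC1 for H2O2 at 24 h against 8 h was -0.000715. With each library left out in turn, the count of lower genes ran from 0 to 1 for H2O2 at 8 h against untreated cells, for H2O2 against NCS at 24 h and for NCS from 4 to 8 h. Over the same fits AKR1B10 for H2O2 against NCS at 4 h ran from -0.0133 to 0.0317, ABCC1 for H2O2 at 24 h against 8 h from -0.00122 to 0.0343, ABCC2 for NCS against untreated cells from -0.0752 to 0.00156 at 4 h and from -0.0278 to 0.093 at 24 h, ABCC3 for H2O2 against NCS at 4 h from -0.0742 to 0.028 and for NCS at 8 h against 4 h from -0.0623 to 0.0339, and EPHX1 for NCS at 8 h against 4 h from -0.0201 to 0.0187.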
